A study of Xenopus laevis with 6 samples.

Results

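Genes of fibroblast growth factor (FGF) signaling were followed in whole *Xenopus laevis* embryos at stage 32 in 6 libraries. The rule for members uses gene symbols and no measured value, although it was set with earlier results of these data known. It takes the gene models named *fgf* or *fgfr* with a number, the receptor-like gene *fgfrl1*, the inhibitors *spry1*, *spry2*, *spry4*, *spred1*, *spred2* and *dusp6*, the transcription factors *etv1* and *etv4*, and the adaptors *frs2* and *frs3*. The rule also names *etv5*, which was not analysed here. This gave 62 of 35773 models, which carry 33 symbols. *X. laevis* is allotetraploid, and most genes are present as an L and an S copy, counted apart. Both copies were found for 29 symbols, the L copy alone for 2 and the S copy alone for 2. By role there were 23 copies of secreted ligands, 2 of endocrine ligands, 8 of intracellular FGF homologous factors, 10 of receptors, 4 of adaptors, 12 of feedback inhibitors and 3 of ETS transcription factors.

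The study asked what loss of a lysine demethylase does to the embryo. Poly(A) RNA was sequenced from 2 libraries of control embryos, 2 of embryos injected with *kdm5c* MO and 2 of embryos injected with *kdm3a* MO. A morpholino oligonucleotide (MO) is an antisense reagent that blocks use of its target mRNA, and it acts in every cell that inherits it. Protein levels of the targets were not measured in these libraries. The methods and the sample labels name different stages for the injection, the labels do not say whether the controls were injected, and no strain and no number of embryos in a library is given in the sources used here. The other 4 libraries have an earlier date in their titles than both *kdm3a* MO libraries, so the *kdm3a* MO and that date cannot be told apart.

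Most FGFs are secreted proteins that bind receptor tyrosine kinases on neighboring cells together with heparan sulfate. The activated receptor phosphorylates the adaptor Frs2, which starts the RAS-MAPK cascade, and ETS factors such as Etv1 and Etv4 carry the signal into transcription. Sprouty and Spred proteins and the MAP kinase phosphatase Dusp6 are induced by the pathway and dampen it, so their transcripts are widely used as a reading of its activity. In the vertebrate embryo FGF signaling keeps the tail bud growing, patterns the midbrain-hindbrain boundary, the pharyngeal arches and the ear, and acts in limb outgrowth.

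The libraries held 12838245 to 20217436 counts. Values are CPM, the counts scaled by edgeR to a common library size, with TMM factors (a trimmed mean normalization) computed across all 6 libraries, and 3 counts correspond to 0.145 to 0.299 CPM. The TMM factor was 0.721 in *kdm5c* MO 1 and 1.03 to 1.16 in the other 5 libraries, so values of *kdm5c* MO 1 lean most on the scaling. Replicates did not sit close together. Control 1 stood apart in the tail bud and presomitic mesoderm list, whose summed level was 656 CPM there and 69.9 to 187 CPM elsewhere, and *kdm5c* MO 1 in the skeletal muscle list, with 43766 CPM against 5218 to 27576 CPM elsewhere. Markers of muscle, epidermis, nervous system, blood, heart, eye and notochord were counted in every library, although 6 of 16 eye copies and 5 of 15 blood copies were at 0 in control 1. Relative to each copy's mean over the 6 libraries, the median log2 deviation of control 1 was -1.67 in skeletal muscle and -2.21 in heart. It was -1.01 in nervous system, -0.64 in notochord and -0.43 in blood. By this measure control 1 was the lowest library in all of these lists, but not in epidermis (0.60) or eye (0.16). *kdm5c.L* was at 115 and 109 CPM in controls and 140.01 and 129 CPM after *kdm5c* MO, and *kdm5c.S* was at 60.99 and 62.9 CPM in controls and 34.1 and 65.1 CPM after *kdm5c* MO. *kdm3a.L* was at 121 and 78.7 CPM in controls and 414 and 374 CPM after *kdm3a* MO, and *kdm3a.S* was at 261 and 147 CPM in controls and 438 and 239 CPM after *kdm3a* MO. None of the 4 copies was lower in both injected libraries than in both controls, and *kdm5c.L* and *kdm3a.L* were each higher in both. Since a MO can act on translation and leave the mRNA in place, the labels could not be checked in this way.

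None of the FGF genes passed the limits that the study set (FDR, the adjusted p, below 0.01 with more than 4-fold difference) in any comparison. In embryos injected with *kdm5c* MO, most copies had lower fitted means than in controls, and *fgfr1.S* had the lowest p. In embryos injected with *kdm3a* MO, *fgfr2.S* and *dusp6.L* were higher than in controls. Between the MO groups, the *kdm3a* MO libraries lay above both *kdm5c* MO libraries in many receptor, adaptor, feedback and *etv1* copies. Each comparison used the 4 libraries of its own groups, tested by edgeR's exact test over all models that passed a filter on low counts. A copy can pass that filter through the group in which it is high, so counts over tested copies are descriptions.

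In *kdm5c* MO against control, 51 of the 62 copies were tested among 26152 models, and 0 were called, as were 0 (0%) of all models. At an unadjusted p below 0.05 there was 1 lower copy, against 1.01% of all models, and 0 higher copies, against 3.29%. The quasi-likelihood test of edgeR and DESeq2 also called 0 copies, with 1 and 2 at an unadjusted p below 0.05. The median log2 fold change was -0.38 over the tested copies and -0.016 over all models, and 36 copies were below 0, against 50.8% of all models. In 9 copies each *kdm5c* MO library was below each control, against 18.3% of all models, and in 2 copies above each, against 17.4%. The share below both controls was therefore close to that of all models. Of the 22 genes with both copies tested, *fgfr1* and *spred2* had each copy below, 2 genes against 9.81% of all gene pairs. Without control 1 the median was -0.083 and without *kdm5c* MO 2 it was -0.70. Between control 2 and *kdm5c* MO 2 alone it was 0.035, with 2 copies over 2-fold higher and 0 over 2-fold lower. Scaled by library size alone it was -0.70 with 43 copies below 0, but the median of all models was then -0.34, so the copies lay below the other models by a similar amount. More than 4-fold higher were 0 copies, against 2.72% of all models.

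In *kdm3a* MO against control, 52 copies were tested among 26491 models. None was called, against 33 models (0.125%) in all. At an unadjusted p below 0.05, 2 copies were higher, against 1.92% of all models, and 0 lower, against 1.28%. DESeq2 and the quasi-likelihood test called 0 copies as well, each with 2 at an unadjusted p below 0.05. The median log2 fold change was 0.13, against -0.015 over all models, and 23 copies were below 0, against 50.9%. None was more than 4-fold lower or higher, against 1.67% and 2.32% of all models. Both *kdm3a* MO libraries lay above both controls in 9 copies, against 17.2% of all models, and below both in 4, against 14.8%. The share above both controls was therefore close to that of all models. Of the 23 genes with both copies tested, *dusp6* and *fgfr2* had each copy above, 2 genes against 6.34% of all gene pairs.

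In *kdm3a* MO against *kdm5c* MO, 50 copies were tested among 26092 models, and 0 were called, against 14 models (0.0537%). At an unadjusted p below 0.05, 3 copies were higher, against 1.52% of all models, and 0 lower, against 3.13%. DESeq2 and the quasi-likelihood test called 0 copies, each with 3 at an unadjusted p below 0.05. The median log2 fold change was 0.53 over the tested copies and 0.035 over all models, and 12 copies were below 0, against 48.1%. More than 4-fold higher was 1 copy, *spry4.L*, against 1.3% of all models, and 0 were more than 4-fold lower, against 1.6%. Both *kdm3a* MO libraries lay above both *kdm5c* MO libraries in 22 of the 50 copies, against 19.1% of all models, and below both in 2, against 15.3%. In 8 of the 21 genes with both copies tested, the L and the S copy were each above, against 8.82% of 7687 gene pairs in all. These were *dusp6*, *etv1*, *fgfr1*, *fgfr2*, *fgfr4*, *frs2*, *spry1* and *spry2*. For *fgfr4.L* this rests on 62.8 against 62.6 CPM in the nearest libraries. Scaled by library size alone, the copies above numbered 27, against 27.0% of all models, and 5 copies were below 0, while the median of all models moved to 0.34. The comparison shares its *kdm5c* MO libraries with the first and its *kdm3a* MO libraries with the second, and MO and label date cannot be told apart in it.

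**Figure D1:**
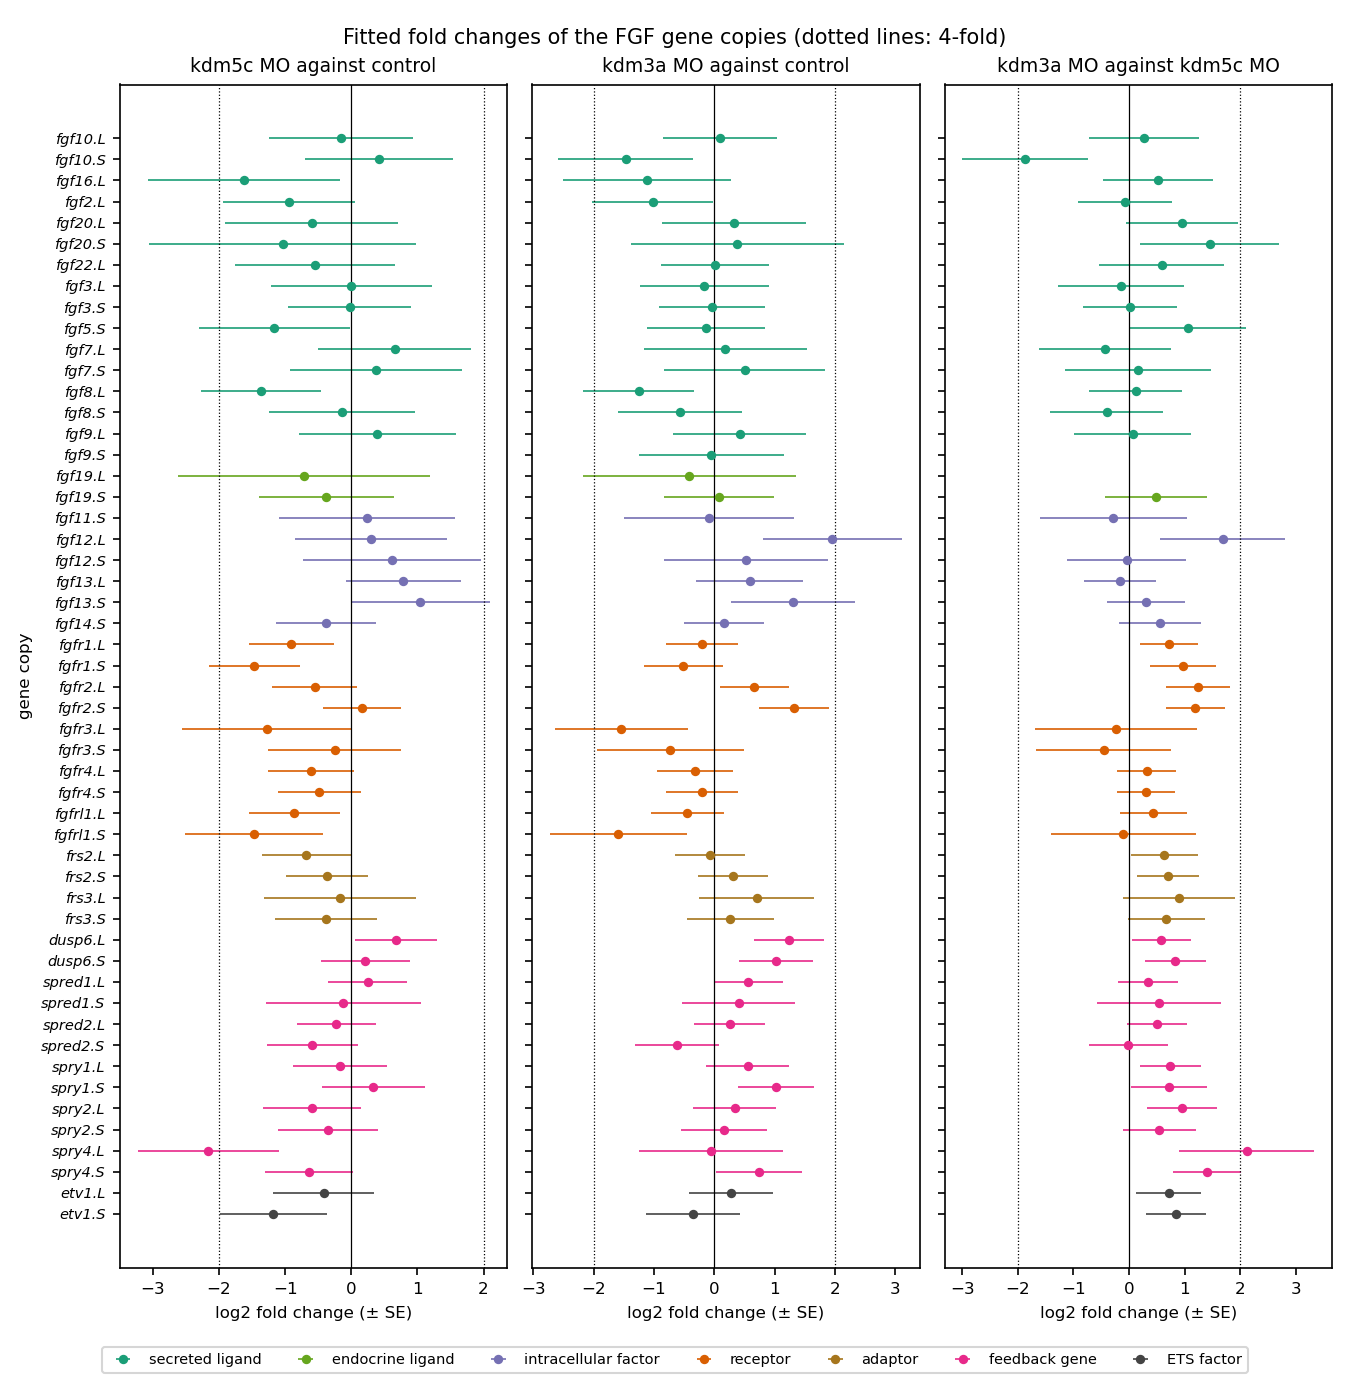
Fitted log2 fold changes of the tested FGF gene copies in 3 comparisons, each of 2 against 2 libraries, with bars of 1 standard error and colors by role; dotted lines mark 4-fold. Most points of *kdm5c* MO against control lie left of 0 (36 of 51), and most of *kdm3a* MO against *kdm5c* MO lie right of it (38 of 50).

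Across libraries, the copies differed between replicates as well as between groups. Of the 52 copies that passed the filter over all 6 libraries, 20 (38.5%) were highest in control 1, against 22.6% of 27277 models, and 19 (36.5%) were lowest in *kdm5c* MO 1, against 25.2%. A further 12 each were highest in *kdm3a* MO 3, against 20.6% of all models, and in *kdm3a* MO 4, against 12.5%. For *kdm3a* MO 3 the share of the 52 copies was thus close to that of all models. Relative to each copy's mean over the 6 libraries, the median log2 deviation was 0.32 in control 1, -0.12 in control 2, -0.37 in *kdm5c* MO 1, -0.19 in *kdm5c* MO 2, 0.26 in *kdm3a* MO 3 and 0.24 in *kdm3a* MO 4. The medians of all models lay between -0.073 and 0.078. The controls differed more than 2-fold from each other in 20 of the 52 copies (38.5%), against 32.1% of all models. For the *kdm5c* MO libraries this was 13 copies (against 35.9%), and for the *kdm3a* MO libraries 12 copies (against 30.4%). Only 2 copies (3.85%) differed more than 2-fold between control 2 and *kdm5c* MO 2, against 9.55% of all models.

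**Figure D2:**
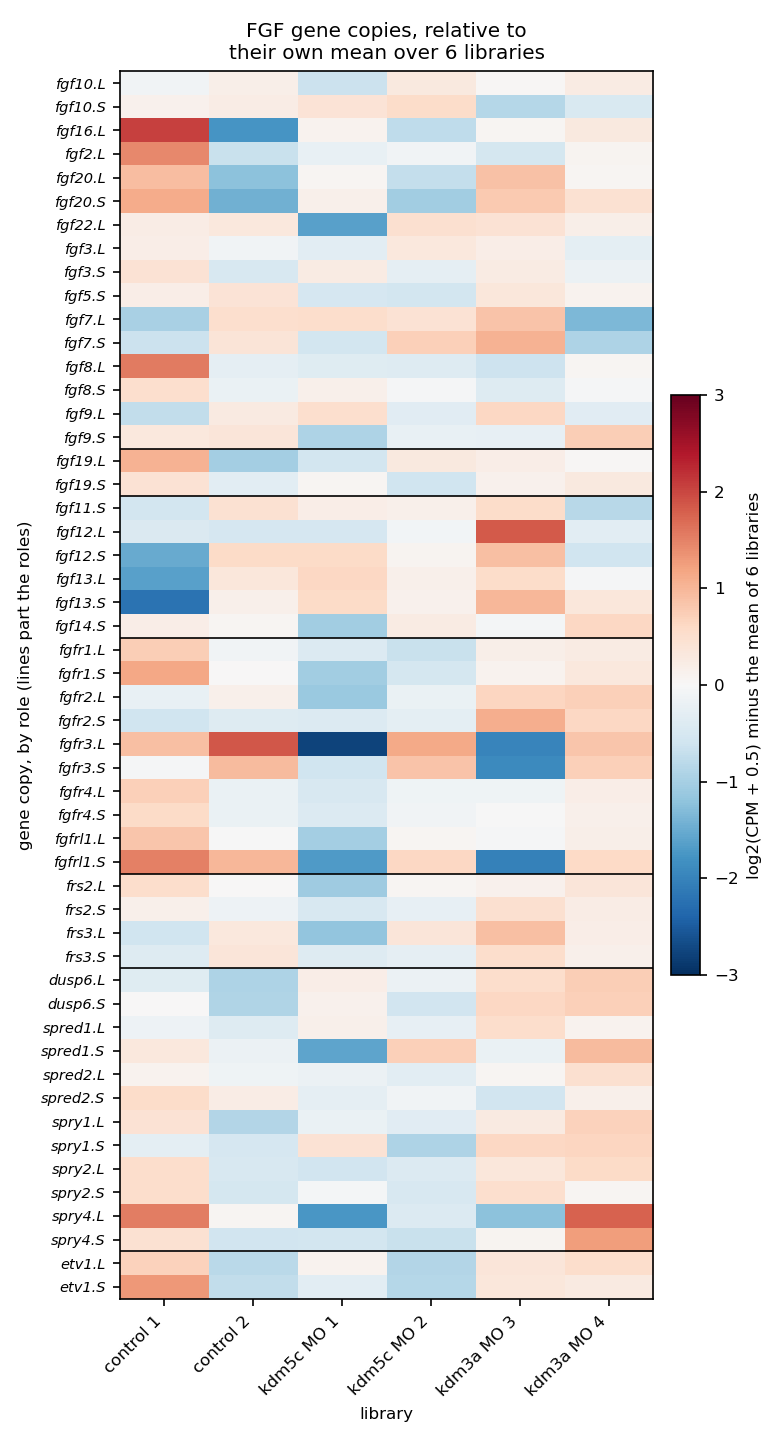
Log2(CPM + 0.5) of the 52 FGF gene copies that passed the filter over 6 libraries, as the difference from each copy's own mean, with copies in rows by role and libraries in columns. Control 1 is high in *fgf16.L*, *fgf2.L*, *fgf8.L* and *etv1.S* and low in *fgf13.L* and *fgf13.S*, while *fgfr3.L* and *fgfrl1.S* are low in *kdm5c* MO 1 and *kdm3a* MO 3.

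Among the secreted ligands, the controls often differed from each other. *fgf8.L*, the copy of a ligand made at the midbrain-hindbrain boundary and in the tail bud, was at 20.4 and 5.35 CPM in the controls, 4.98 and 4.92 CPM in *kdm5c* MO 1 and 2, and 4.10 and 6.91 CPM in *kdm3a* MO 3 and 4. Control 1 alone was high and the other 5 libraries lay close together. Its group means were 12.9 ± 10.7 CPM in controls and 4.95 ± 0.0406 CPM in *kdm5c* MO embryos (SD, n = 2 each), with a log2 fold change of -1.36 with a standard error of 0.91, which became -0.094 without control 1. *fgf8.S* was at 2.40 and 1.29 CPM in the controls, 1.79 and 1.51 CPM in *kdm5c* MO 1 and 2, and 1.06 and 1.49 CPM in *kdm3a* MO 3 and 4, again highest in control 1. *fgf2.L*, a ligand with broad mitogenic activity, measured 15.4 and 3.18 CPM in the controls, 4.58 and 4.99 CPM in *kdm5c* MO 1 and 2, and 3.57 and 5.76 CPM in *kdm3a* MO 3 and 4. The log2 fold change of *fgf2.L* in *kdm3a* MO against control was -1.02 (standard error 0.997), and without control 1 it was 0.54. *fgf16.L*, of the FGF9 subfamily, differed between the controls as well, with 11.5 CPM in control 1, 0.353 in control 2, 2.59 in *kdm5c* MO 1, 1.21 in *kdm5c* MO 2, 2.51 in *kdm3a* MO 3 and 3.05 in *kdm3a* MO 4. Its log2 fold change of -1.62 with a standard error of 1.45 in *kdm5c* MO against control became 2.41 without control 1, and its value of -1.12 in *kdm3a* MO against control became 2.94. For *fgf8.L* in *kdm3a* MO against control, -1.25 became 0.031.

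*fgf20*, of the same subfamily as *fgf16*, differed between the replicates of every group. The L copy was at 4.40 and 0.588 CPM in the controls, 2.19 and 1.06 CPM in *kdm5c* MO 1 and 2, and 4.24 and 2.17 CPM in *kdm3a* MO 3 and 4, and the S copy at 2.40 and 0 CPM in the controls, 0.995 and 0.151 CPM in *kdm5c* MO 1 and 2, and 1.83 and 1.35 CPM in *kdm3a* MO 3 and 4. Control 2 was the lowest library for both copies, with 0 counts of *fgf20.S*, where 3 counts correspond to 0.176 CPM. *fgf9.L*, the third gene of this subfamily, was at 0.801 and 2.12 CPM in the controls, 2.59 and 1.21 CPM in *kdm5c* MO 1 and 2, and 2.84 and 1.22 CPM in *kdm3a* MO 3 and 4, with all groups overlapping. In 3 copies, *fgf2.L*, *fgf8.L* and *fgf16.L*, control 1 was more than 2-fold above all 5 other libraries, which held for 5.77% of the 52 copies and 2.47% of all models, a pattern described after the values were seen.

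The tail bud and presomitic mesoderm list was also highest in control 1. It holds 24 copies, of which 22 passed the filter, and its summed level was 656 and 69.9 CPM in controls, 187 and 88.8 CPM in *kdm5c* MO embryos, and 115 and 132 CPM in *kdm3a* MO embryos. Control 2 was thus below every MO library, and control 1 above. *cdx4.L*, which encodes a posterior homeodomain factor, was at 116 CPM in control 1, 5.53 in control 2, 25.6 in *kdm5c* MO 1, 6.66 in *kdm5c* MO 2, 11.9 in *kdm3a* MO 3 and 15.9 in *kdm3a* MO 4. *t.L*, the brachyury gene of the tail bud and notochord, was at 18.95 and 2.47 CPM in the controls, 8.36 and 2.57 CPM in *kdm5c* MO 1 and 2, and 4.34 and 5.28 CPM in *kdm3a* MO 3 and 4. Both were picked after their values were seen. *nkx1-2.S* was at 0 in all 6 libraries. Of the 21 copies tested in each comparison with control, 20 were lower in *kdm5c* MO embryos (median log2 fold change -1.17), against 50.8% of all models. In *kdm3a* MO embryos 20 were lower (median -1.59), against 50.9%, and 0 passed the limits in either comparison. Only 1 copy was below both controls in each comparison, against 18.3% and 14.8% of all models. Above both were 0 and 1, against 17.4% and 17.2%. The part of the tail bud in the ligand values was not tested. In RNA of whole embryos, fewer cells of a type and less RNA per cell cannot be told apart.

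The remaining secreted ligands that could be described overlapped between all groups or rested on few counts. *fgf3.S*, a ligand of the ear and hindbrain, was at 6.47 and 3.18 CPM in the controls, 5.57 and 3.78 CPM in *kdm5c* MO 1 and 2, and 5.59 and 4.06 CPM in *kdm3a* MO 3 and 4, and *fgf3.L* at 1.07 and 0.765 CPM in the controls, 0.597 and 1.21 CPM in *kdm5c* MO 1 and 2, and 1.06 and 0.609 CPM in *kdm3a* MO 3 and 4. *fgf10.L*, which acts in limb and lung outgrowth, was at 1.94 and 2.47 CPM in the controls, 1.19 and 2.72 CPM in *kdm5c* MO 1 and 2, and 2.22 and 2.64 CPM in *kdm3a* MO 3 and 4. *fgf10.S* was lower in both *kdm3a* MO libraries than in the other 4, with 1.07 and 1.18 CPM in the controls, 1.39 and 1.59 CPM in *kdm5c* MO 1 and 2, and 0.289 and 0.542 CPM in *kdm3a* MO 3 and 4, values that rest on 6 to 21 counts in a library (log2 fold change of -1.87 with a standard error of 1.13 in *kdm3a* MO against *kdm5c* MO). *fgf7.L* and *fgf7.S*, ligands that mesenchyme sends to epithelium, were both lowest in *kdm3a* MO 4 and both highest in *kdm3a* MO 3, with 0.406 and 3.66 CPM for the L copy and 0.339 and 2.80 CPM for the S copy. The controls were at 0.667 and 2.76 CPM for *fgf7.L* and at 0.534 and 1.59 CPM for *fgf7.S*, and *kdm5c* MO 1 and 2 at 2.79 and 2.57 CPM for *fgf7.L* and at 0.597 and 2.12 CPM for *fgf7.S*. *fgf22.L*, of the same subfamily, was at 3.07 and 3.29 CPM in the controls, 0.498 and 3.78 CPM in *kdm5c* MO 1 and 2, and 3.62 and 2.98 CPM in *kdm3a* MO 3 and 4, so *kdm5c* MO 1 alone was low. *fgf5.S* was lower in both *kdm5c* MO libraries, with 1.60 and 1.94 CPM in the controls, 0.796 and 0.757 CPM in *kdm5c* MO 1 and 2, and 1.83 and 1.49 CPM in *kdm3a* MO 3 and 4 (log2 fold change of -1.16 with a standard error of 1.14 in *kdm5c* MO against control), on 8 to 38 counts. Fewer than 20 counts in every library were found for *fgf1.L*, *fgf2.S*, *fgf4.L*, *fgf4.S*, *fgf6.L*, *fgf6.S*, *fgf9.S* and *fgf16.S*. *fgf4.L* and *fgf4.S*, ligands of the early mesoderm and tail bud, were counted at most 4 and 6 times.

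*fgf19*, the only endocrine ligand among the members, acts in mammals on bile acid synthesis and in zebrafish embryos in the forebrain and eye. *fgf19.S* was at 4.40 and 2.41 CPM in the controls, 3.28 and 1.89 CPM in *kdm5c* MO 1 and 2, and 3.47 and 3.93 CPM in *kdm3a* MO 3 and 4, and *fgf19.L* had 24 and 0 counts in controls, 2 and 10 after *kdm5c* MO and 14 and 8 after *kdm3a* MO. Control 1 was the highest library for both copies.

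The intracellular FGF homologous factors do not signal through FGF receptors and instead bind voltage-gated sodium channels in neurons and muscle. Control 1 was the lowest library in 3 of the 6 copies that passed the filter, against 27.1% of all models. These were *fgf12.S* and both copies of *fgf13*. *kdm3a* MO 3 was the highest library in 4 of the 6, against 20.6% of all models. *fgf13.L* was at 3.87 CPM in control 1, 16.5 in control 2, 20.3 in *kdm5c* MO 1, 14.4 in *kdm5c* MO 2, 19.2 in *kdm3a* MO 3 and 12.5 in *kdm3a* MO 4, and *fgf13.S* at 1.27 CPM in control 1, 8.65 in control 2, 11.7 in *kdm5c* MO 1, 8.47 in *kdm5c* MO 2, 15.8 in *kdm3a* MO 3 and 9.75 in *kdm3a* MO 4. Both copies were more than 2-fold lower in control 1 than in all 5 others, which otherwise lay within 12.5 to 20.3 CPM for the L copy. This held for 3.85% of the 52 copies and 7.37% of all models. *fgf12.L* stood out in 1 library, with 148 counts (7.14 CPM) in *kdm3a* MO 3 and 10 to 20 counts elsewhere. Its log2 fold change in *kdm3a* MO against *kdm5c* MO was 1.69, and -0.052 without *kdm3a* MO 3. *fgf12.S* was at 0.267 and 2.76 CPM in the controls, 2.79 and 1.82 CPM in *kdm5c* MO 1 and 2, and 3.62 and 0.948 CPM in *kdm3a* MO 3 and 4. *fgf14.S* was at 16.8 and 14.998 CPM in the controls, 6.77 and 17.3 CPM in *kdm5c* MO 1 and 2, and 13.8 and 22.5 CPM in *kdm3a* MO 3 and 4, with *kdm5c* MO 1 the lowest. *fgf11.L*, *fgf11.S* and *fgf14.L* were at 0 to 24 counts. The nervous system list (23 copies, none of them at 0) had a median log2 deviation of -1.01 in control 1 and of -0.26 to 0.53 in the other 5 libraries. Its summed level was 911 CPM in control 1, 847 CPM in *kdm3a* MO 4 and 1320 to 1686 CPM elsewhere. Not every copy was low in control 1, since *sox2.S*, *sox3.L*, *sox3.S* and *nes.S* were highest there. The skeletal muscle and heart lists were also lowest in control 1, with median log2 deviations of -1.67 and -2.21. In the other 5 libraries these were -0.28 to 1.48 and -0.16 to 0.91. These lists were not uniform either. *myod1.S* of the muscle list and both copies of *nkx2-5* and *gata4* of the heart list were highest in control 1. The part of any of these tissue lists in the values of the FGF homologous factors was not tested.

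**Figure D3:**
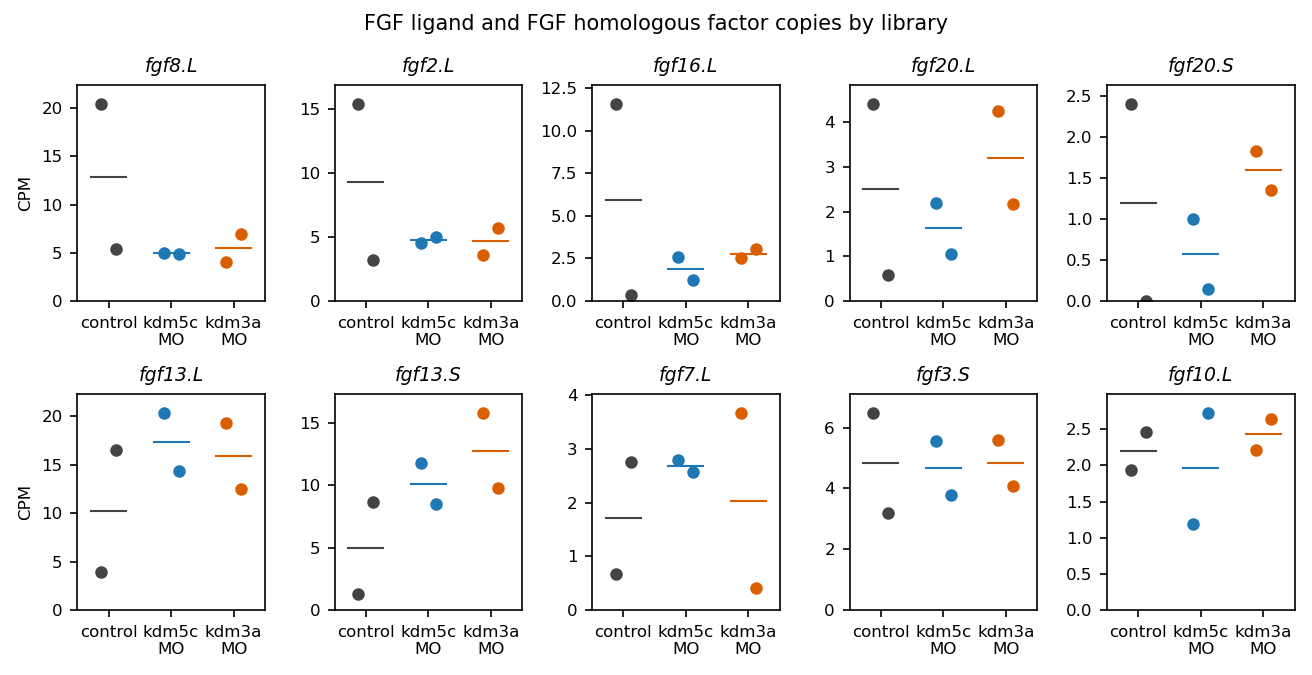
CPM (TMM-scaled) of 10 FGF ligand and FGF homologous factor copies, with 1 point per library, the group mean as a line, and groups on the x axis. Control 1 lies far above the other libraries for *fgf8.L*, *fgf2.L* and *fgf16.L*, and below them for *fgf13.L* and *fgf13.S*.

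Among the receptors, *fgfr1* was lowest in *kdm5c* MO embryos and *fgfr2* highest in *kdm3a* MO embryos. *fgfr1* encodes the receptor used most broadly in early mesoderm and neural tissue. *fgfr1.L* was at 86.1 and 47.9 CPM in the controls, 38.4 and 32.3 CPM in *kdm5c* MO 1 and 2, and 58.01 and 61.4 CPM in *kdm3a* MO 3 and 4. *fgfr1.S* was at 52.7 and 23.5 CPM in the controls, 11.1 and 16.1 CPM in *kdm5c* MO 1 and 2, and 25.3 and 29.4 CPM in *kdm3a* MO 3 and 4. In both copies each *kdm5c* MO library was below each library of the other groups, and control 1 was the highest. The share of all models below the other 4 libraries in this way was not computed. Against controls alone, both copies were below in 2 of 22 genes, against 9.81% of all gene pairs. For *fgfr1.S* the group means were 38.1 ± 20.6 CPM in controls, 13.6 ± 3.52 CPM in *kdm5c* MO embryos and 27.4 ± 2.88 CPM in *kdm3a* MO embryos (SD, n = 2 each). In *kdm5c* MO against control it had a log2 fold change of -1.47 with a standard error of 0.69 (edgeR's exact test, unadjusted p = 0.0399, adjusted p = 1), the lowest p of the 51 copies. Over the alternatives the log2 fold change ran from -1.94 to -0.77 and the adjusted p by edgeR or DESeq2 from 0.315 to 1, and without control 1 the log2 fold change was -0.77. *fgfr1.L* had a log2 fold change of -0.90 with a standard error of 0.64.

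*fgfr2*, a receptor of epithelia and of neural and skeletal progenitors, had both copies higher in *kdm3a* MO embryos. *fgfr2.L* was at 31.2 and 40.4 CPM in the controls, 16.5 and 31.8 CPM in *kdm5c* MO 1 and 2, and 57.2 and 59.7 CPM in *kdm3a* MO 3 and 4. *fgfr2.S* was at 35.4 and 41.3 CPM in the controls, 40.7 and 43.8 CPM in *kdm5c* MO 1 and 2, and 115 and 82.95 CPM in *kdm3a* MO 3 and 4. Neither copy overlapped between *kdm3a* MO and the other 4 libraries, which for *fgfr2.S* lay within 35.4 to 43.8 CPM. Against control, *fgfr2.S* had a log2 fold change of 1.32 with a standard error of 0.58 (edgeR's exact test, unadjusted p = 0.0253, adjusted p = 1). Against *kdm5c* MO it had a log2 fold change of 1.19 with a standard error of 0.53 (edgeR's exact test, unadjusted p = 0.0286, adjusted p = 0.965), and *fgfr2.L* a log2 fold change of 1.25 with a standard error of 0.57 (edgeR's exact test, unadjusted p = 0.0335, adjusted p = 0.993). *fgfr2.S* stayed between 1.12 and 1.51 against control over the alternatives, with adjusted p from 0.466 to 1 by edgeR or DESeq2. A total of 6 of the 52 copies (11.5%), against 8.05% of all models, were higher in both *kdm3a* MO libraries than in the other 4. These were both copies of *fgfr2* and *dusp6*, with *frs2.S* and *spry1.S*.

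*fgfr3*, a receptor of cartilage and of the nervous system, split each MO group. *fgfr3.L* was at 11.1 CPM in control 1, 22.1 in control 2, 0.398 in *kdm5c* MO 1, 13.2 in *kdm5c* MO 2, 1.06 in *kdm3a* MO 3 and 10.6 in *kdm3a* MO 4. The counts behind these values were 4 in *kdm5c* MO 1 and 22 in *kdm3a* MO 3, against 156 to 375 in the other 4 libraries. *fgfr3.S* was at 3.47 and 7.35 CPM in the controls, 2.19 and 6.81 CPM in *kdm5c* MO 1 and 2, and 0.579 and 6.09 CPM in *kdm3a* MO 3 and 4, with the same libraries lowest. *fgfrl1* encodes a receptor-like protein without a kinase domain that can bind ligand. Its S copy was at 13.2 and 9.06 CPM in the controls, 0.995 and 6.96 CPM in *kdm5c* MO 1 and 2, and 0.675 and 6.84 CPM in *kdm3a* MO 3 and 4, again lowest in *kdm5c* MO 1 and *kdm3a* MO 3, and its L copy at 63.5 and 34.8 CPM in the controls, 17.2 and 36.4 CPM in *kdm5c* MO 1 and 2, and 34.3 and 39.6 CPM in *kdm3a* MO 3 and 4. The log2 fold changes against control were -1.28 and -1.54 for *fgfr3.L* and -1.47 and -1.59 for *fgfrl1.S* in *kdm5c* MO and *kdm3a* MO embryos (standard errors 1.28, 1.11, 1.04 and 1.13). Without *kdm5c* MO 1, the values in *kdm5c* MO embryos were -0.35 and -0.69, and without *kdm3a* MO 3 those in *kdm3a* MO embryos were -0.64 and -0.69. Without *kdm5c* MO 2 they were -5.41 and -3.53, and without *kdm3a* MO 4 they were -4.03 and -4.09. The lowest adjusted p of any member under any alternative, 0.0895 in edgeR's exact test, was that of *fgfr3.L* without *kdm5c* MO 2. Without control 2, *fgfr3.L* was at -0.70 in *kdm5c* MO and -0.93 in *kdm3a* MO embryos. In *fgfr3.L* and *fgfrl1.S*, 3.85% of the 52 copies, these 2 libraries were each more than 2-fold below the other 4, as in 3.87% of all models. The pattern was described after the values were seen and is no more frequent among the FGF genes than elsewhere.

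*fgfr4*, a receptor strongly used in muscle precursors and anterior neural tissue, followed the library in both copies. *fgfr4.L* was at 113 and 59.5 CPM in the controls, 49.3 and 62.6 CPM in *kdm5c* MO 1 and 2, and 62.8 and 79.2 CPM in *kdm3a* MO 3 and 4. *fgfr4.S* was at 66.7 and 38.6 CPM in the controls, 33.1 and 41.3 CPM in *kdm5c* MO 1 and 2, and 44.4 and 49.4 CPM in *kdm3a* MO 3 and 4. Both copies were highest in control 1 and lowest in *kdm5c* MO 1, and the controls overlapped with both MO groups. The summed level of the 10 receptor copies was 476 and 325 CPM in controls, 210.0 and 291 CPM in *kdm5c* MO embryos, and 399 and 425 CPM in *kdm3a* MO embryos. Against control, 9 of the 10 receptor copies were lower in *kdm5c* MO embryos (median -0.74), against 50.8% of all models. In *kdm3a* MO embryos 8 were lower (median -0.38), against 50.9%, and 0 passed the limits in either comparison. Control 1 was the highest library in 6 of the 10. Below both controls were 3 copies in *kdm5c* MO and 2 in *kdm3a* MO embryos, against 18.3% and 14.8% of all models. Above both were 0 and 2, against 17.4% and 17.2%.

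**Figure D4:**
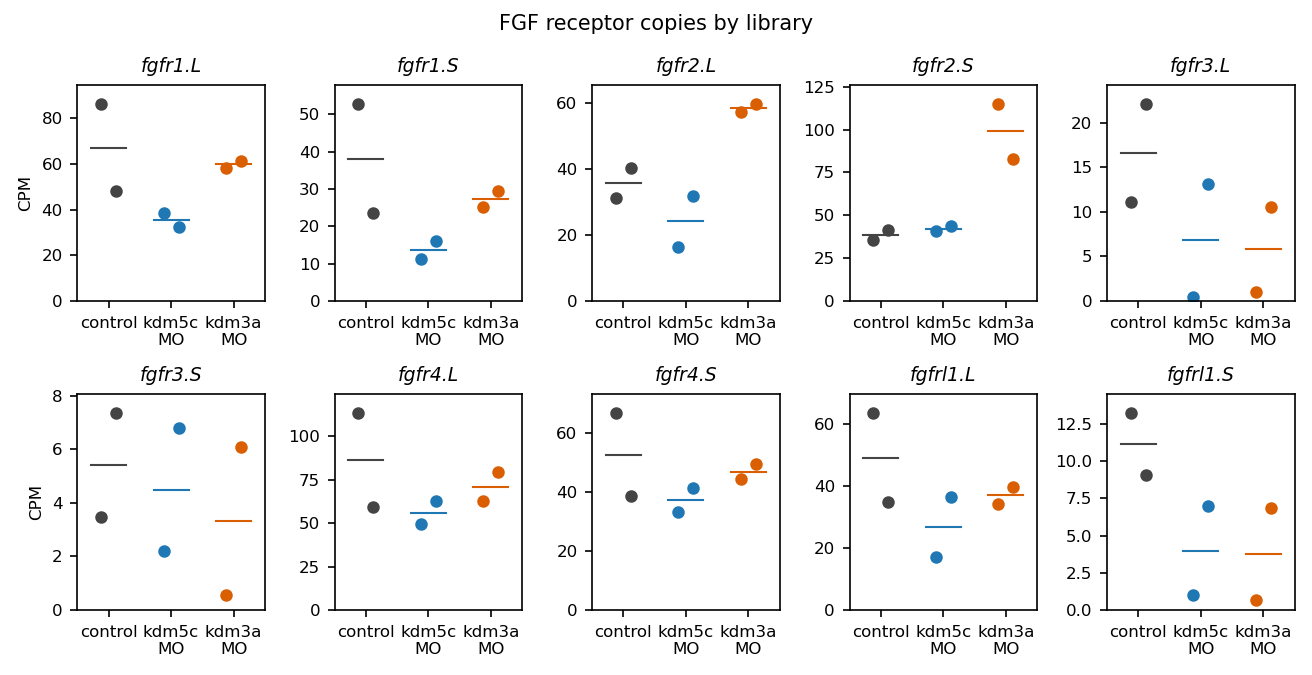
CPM (TMM-scaled) of the 10 FGF receptor copies, with 1 point per library, the group mean as a line, and groups on the x axis. Both *fgfr2* copies are highest in *kdm3a* MO embryos, both *fgfr1* copies are lowest in *kdm5c* MO embryos, and *fgfr3.L* and *fgfrl1.S* each have 1 library near 0 in both MO groups.

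Of the adaptors, *frs2* encodes the docking protein that links receptor and RAS. *frs2.L* was at 49.6 and 34.6 CPM in the controls, 16.2 and 35.7 CPM in *kdm5c* MO 1 and 2, and 37.7 and 44.7 CPM in *kdm3a* MO 3 and 4, and *frs2.S* at 29.2 and 23.6 CPM in the controls, 18.5 and 22.02 CPM in *kdm5c* MO 1 and 2, and 36.6 and 30.7 CPM in *kdm3a* MO 3 and 4. *frs3.L*, a paralog that is mostly neural in mammals, was at 1.74 and 3.76 CPM in the controls, 0.995 and 3.86 CPM in *kdm5c* MO 1 and 2, and 5.88 and 3.39 CPM in *kdm3a* MO 3 and 4, and *frs3.S* at 7.87 and 13.6 CPM in the controls, 7.86 and 8.47 CPM in *kdm5c* MO 1 and 2, and 15.1 and 11.5 CPM in *kdm3a* MO 3 and 4. All 4 adaptor copies were lowest in *kdm5c* MO 1, against 25.2% of all models. For *frs3.S* this rests on 7.86 CPM in *kdm5c* MO 1 against 7.87 CPM in control 1. In *kdm3a* MO against *kdm5c* MO all 4 were higher, with log2 fold changes of 0.64 to 0.89 and 0 past the limits, and 3 of them were above both *kdm5c* MO libraries, against 19.1% of all models.

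The feedback genes were higher in *kdm3a* MO embryos than in the other groups for *dusp6* and *spry1.S*. *dusp6* encodes a phosphatase that inactivates MAP kinases. *dusp6.L* was at 39.4 and 26.8 CPM in the controls, 59.2 and 45.02 CPM in *kdm5c* MO 1 and 2, and 74.2 and 85.5 CPM in *kdm3a* MO 3 and 4. *dusp6.S* was at 38.7 and 20.1 CPM in the controls, 41.6 and 25.6 CPM in *kdm5c* MO 1 and 2, and 59.3 and 63.2 CPM in *kdm3a* MO 3 and 4. The *kdm3a* MO libraries were above all others in both copies, and control 2 was the lowest. Against control, *dusp6.L* had a log2 fold change of 1.23 with a standard error of 0.58 (edgeR's exact test, unadjusted p = 0.0378, adjusted p = 1), and over the alternatives it ran from 0.99 to 1.56 with adjusted p from 0.686 to 1 by edgeR or DESeq2. *dusp6.S* had a log2 fold change of 1.03 with a standard error of 0.61. In *kdm5c* MO against control *dusp6.L* also had both libraries above both controls (log2 fold change of 0.67 with a standard error of 0.62), whereas *dusp6.S* overlapped.

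Sprouty proteins block the RAS-MAPK branch below the receptor. *spry1.L* was at 33.8 and 13.3 CPM in the controls, 21.7 and 19.6 CPM in *kdm5c* MO 1 and 2, and 30.3 and 40.4 CPM in *kdm3a* MO 3 and 4. *spry1.S* was at 12.7 and 10.8 CPM in the controls, 21.1 and 8.02 CPM in *kdm5c* MO 1 and 2, and 24.3 and 24.8 CPM in *kdm3a* MO 3 and 4, with both *kdm3a* MO libraries above the other 4 (log2 fold change of 1.02 with a standard error of 0.62 against control). *spry2.L* was at 20.4 and 9.999 CPM in the controls, 9.35 and 10.5 CPM in *kdm5c* MO 1 and 2, and 17.99 and 21.4 CPM in *kdm3a* MO 3 and 4, and *spry2.S* at 19.9 and 9.29 CPM in the controls, 12.9 and 9.53 CPM in *kdm5c* MO 1 and 2, and 19.4 and 14.2 CPM in *kdm3a* MO 3 and 4. Both *spry2* copies were higher in control 1 and the *kdm3a* MO libraries than in the other 3. *spry4.L* was at 12.01 and 3.999 CPM in the controls, 0.796 and 2.72 CPM in *kdm5c* MO 1 and 2, and 1.35 and 14.3 CPM in *kdm3a* MO 3 and 4, and *spry4.S* at 41.1 and 20.1 CPM in the controls, 20.2 and 18.7 CPM in *kdm5c* MO 1 and 2, and 31.9 and 72.5 CPM in *kdm3a* MO 3 and 4. For *spry4.S*, *kdm3a* MO against *kdm5c* MO had a log2 fold change of 1.40 with a standard error of 0.61 (edgeR's exact test, unadjusted p = 0.0264, adjusted p = 0.958), and 0.67 without *kdm3a* MO 4. *spry4.L* differed between replicates of *kdm3a* MO, with 28 counts in *kdm3a* MO 3 and 211 in *kdm3a* MO 4. Its log2 fold change in *kdm3a* MO against *kdm5c* MO was 2.12, and -0.43 without *kdm3a* MO 4. In *kdm5c* MO against control it was -2.16 with a standard error of 1.07 (exact test of edgeR, unadjusted p = 0.0599), the 1 member more than 4-fold apart in that comparison, against 1.38% of all models more than 4-fold lower. It was -1.16 without control 1, -1.56 without *kdm5c* MO 1 and -3.37 without *kdm5c* MO 2.

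Spred proteins inhibit RAS activation at the membrane. *spred2.L* was at 85.4 and 72.6 CPM in the controls, 70.1 and 63.4 CPM in *kdm5c* MO 1 and 2, and 83.03 and 111 CPM in *kdm3a* MO 3 and 4, and *spred2.S* at 18.02 and 14.2 CPM in the controls, 9.95 and 11.2 CPM in *kdm5c* MO 1 and 2, and 7.96 and 13.5 CPM in *kdm3a* MO 3 and 4. In both copies the *kdm5c* MO libraries were below the controls. For *spred2.S* both *kdm3a* MO libraries were below the controls as well (log2 fold change of -0.62 with a standard error of 0.70). *spred1.L* was at 35.4 and 29.8 CPM in the controls, 43.4 and 33.1 CPM in *kdm5c* MO 1 and 2, and 57.2 and 42.2 CPM in *kdm3a* MO 3 and 4, and *spred1.S* at 4.40 and 2.94 CPM in the controls, 0.796 and 5.90 CPM in *kdm5c* MO 1 and 2, and 2.89 and 7.04 CPM in *kdm3a* MO 3 and 4, where *kdm5c* MO 1 rests on 8 counts. The *spred* copies had log2 fold changes between -0.59 and 0.25 in *kdm5c* MO against control. Of the 12 feedback copies, 9 were highest in *kdm3a* MO 4, against 12.5% of all models. In *kdm3a* MO against *kdm5c* MO, 11 of the 12 had a log2 fold change above 0 (median log2 fold change 0.65). Both *kdm3a* MO libraries were above both *kdm5c* MO libraries in 8 of the 12, against 19.1% of all models.

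*etv1*, an ETS factor that FGF signaling induces, was at 119.8 CPM in control 1, 42.2 in control 2, 79.6 in *kdm5c* MO 1, 39.8 in *kdm5c* MO 2, 94.7 in *kdm3a* MO 3 and 106 in *kdm3a* MO 4 for the L copy. The S copy was at 146 CPM in control 1, 35.2 in control 2, 46.9 in *kdm5c* MO 1, 32.2 in *kdm5c* MO 2, 74.7 in *kdm3a* MO 3 and 70.6 in *kdm3a* MO 4. Control 1 was the highest library for both copies, control 2 and *kdm5c* MO 2 were low, and the *kdm3a* MO libraries lay between. The log2 fold change of *etv1.S* in *kdm5c* MO against control was -1.18 (standard error 0.81), and 0.19 without control 1. *etv4.S* was counted at most 2 times in a library.

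**Figure D5:**
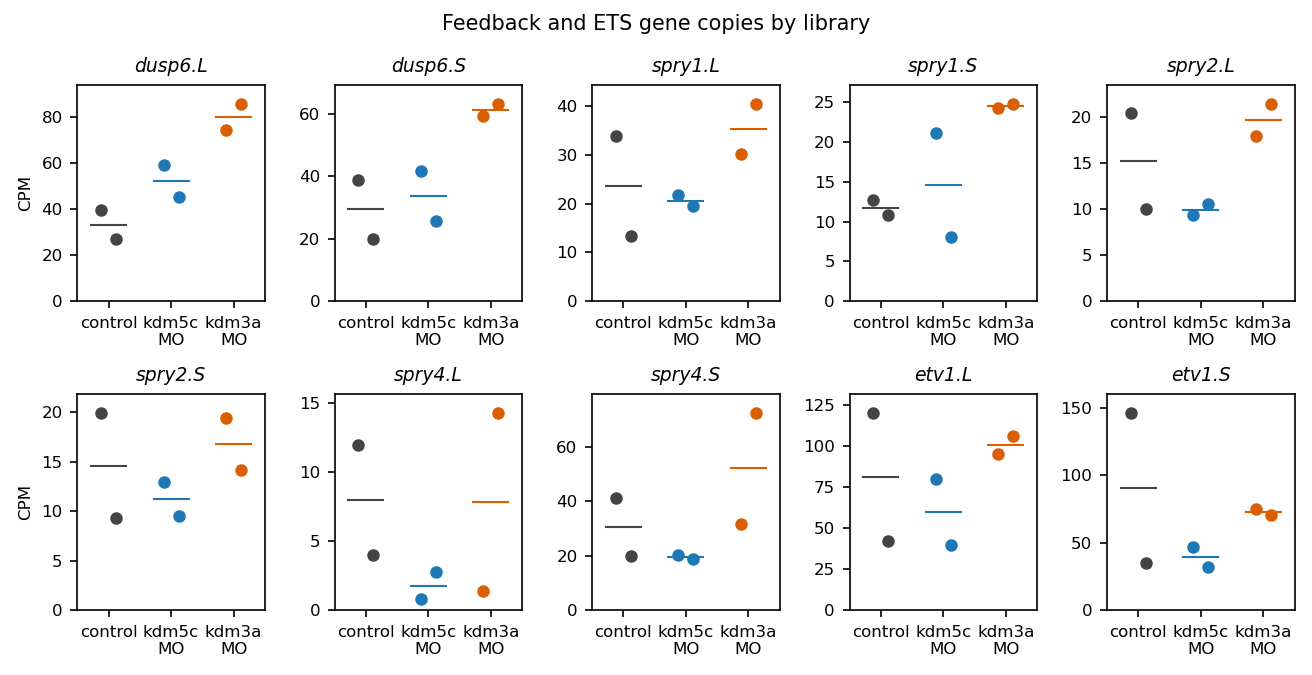
CPM (TMM-scaled) of 10 feedback and ETS gene copies, with 1 point per library, the group mean as a line, and groups on the x axis. Both *dusp6* copies and *spry1.S* are highest in the *kdm3a* MO libraries, whereas both *etv1* copies are highest in control 1.

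Immediate early genes, which many stimuli induce through MAPK signaling, were also higher in *kdm3a* MO embryos. Of 29 copies tested, 15 were higher than in controls at an unadjusted p below 0.05, against 1.92% of all models, and 0 lower, against 1.28%. The median log2 fold change was 1.48, and 3 passed both limits, against 0.125% of all models. These were *jun.L* (3.49, adjusted p = 0.00648), *junb.L* (3.56, adjusted p = 0.000516) and *junb.S* (3.26, adjusted p = 0.000516), all in edgeR's exact test, whereas the quasi-likelihood test called 0 of all models in this comparison. The summed level of the list was 822 and 440 CPM in controls, 914 and 525 CPM in *kdm5c* MO embryos, and 1361 and 988 CPM in *kdm3a* MO embryos. In *kdm5c* MO against control, 19 of 27 copies tested were higher, with a median log2 fold change of 0.51. At an unadjusted p below 0.05, 4 were higher there, against 3.29% of all models, and 0 lower, against 1.01%. The list's median log2 deviation was -0.64 and -0.76 in controls and 0.35 and -0.80 in *kdm5c* MO 1 and 2. In *kdm3a* MO 3 and 4 it was 1.22 and 0.22. In *kdm3a* MO embryos *dusp6* was above controls by less than the list's median log2 fold change of 1.48. The part of the immediate early genes in the *dusp6* values was not tested.

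The rest of the pathway was read from lists of genes outside the members. Of 26 copies of RAS-MAPK cascade genes, among them *grb2*, *sos1* and *map2k1*, 0 passed the limits in the 3 comparisons. In *kdm5c* MO against control 20 were lower and 6 higher (median log2 fold change -0.32), in *kdm3a* MO against control 16 were lower and 10 higher (median -0.05), and in *kdm3a* MO against *kdm5c* MO 7 were lower and 19 higher (median 0.28). At an unadjusted p below 0.05 there were 2 RAS-MAPK copies, both lower in *kdm3a* MO than in control embryos, against 1.28% of all models. Of the 26 copies, 14 had each *kdm5c* MO value under each control value, against 18.3% of all models, and 1 over, against 17.4%. The *kdm3a* MO values exceeded each *kdm5c* MO value in 11 of the 26, against 19.1%, and were under each in 1, against 15.3%. A high share above the *kdm5c* MO libraries was thus not limited to the FGF genes. Coreceptors and extracellular modulators gave 0 past the limits, with medians of 0.09, 0.22 and 0.08 over the 38 to 40 copies tested. Within this list, *il17rd.L*, which encodes the feedback antagonist Sef, was at 24.5 and 11.8 CPM in the controls, 1.19 and 8.32 CPM in *kdm5c* MO 1 and 2, and 1.74 and 10.9 CPM in *kdm3a* MO 3 and 4. Like *fgfr3.L* and *fgfrl1.S*, *il17rd.L* was more than 2-fold lower in *kdm5c* MO 1 and *kdm3a* MO 3 than in the other 4 libraries, as were 3.87% of all models. Without a fold limit, 15.9% of all models were lowest in these 2 libraries. The S copy was at 35.8 and 15.9 CPM in the controls and 13.4 and 12.6 CPM in *kdm5c* MO 1 and 2. In *kdm3a* MO 3 and 4 it was at 13.3 and 14.9 CPM, so *kdm5c* MO 2 was the lowest. *il17rd.L* was picked after its values were seen.

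The share of counts from the L copy was compared across libraries for the 17 genes with at least 50 counts for the L and S copies together in every library. It varied by 4.33 to 22.04 percentage points over the 6 libraries, with a median of 16.2. In *fgfr4* it was the most even, from 58.6% in *kdm3a* MO 3 to 62.9% in control 1. In *fgfr2* the L share was 46.8% and 49.5% in controls, 28.9% (95% interval 23.7 to 34.5) in *kdm5c* MO 1, 42.0% in *kdm5c* MO 2, 33.3% (31.1 to 35.5) in *kdm3a* MO 3 and 41.8% in *kdm3a* MO 4. In *spry4* it was 22.6% and 16.6% in controls, 3.79% (1.04 to 9.38) and 12.7% in *kdm5c* MO 1 and 2, and 4.06% (2.24 to 6.73) and 16.5% in *kdm3a* MO 3 and 4. In *fgfrl1* it was 82.8% and 79.3% in controls, 94.5% and 83.9% in *kdm5c* MO 1 and 2, and 98.1% and 85.3% in *kdm3a* MO 3 and 4. *kdm5c* MO 1 and *kdm3a* MO 3 thus stood at one end in each of these 3 genes, toward the S copy in *fgfr2* and *spry4* and toward the L copy in *fgfrl1*. Intervals are exact Clopper-Pearson on halved counts, since most low counts were even (89.7% to 95.04% of counts of 20 or fewer), which would follow if each read of a pair was counted, and they cover counting error only. How reads shared by near-identical copies were assigned is not given in the sources used here, which limits every value of a single copy. The 3 genes were picked after their shares were seen.

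Some members are neighbors in the genome, read from RefSeq's gene table of another assembly (Xenopus_laevis_v10.1), in which 54 of the 62 symbols matched. *fgf3*, *fgf4* and *fgf19* follow each other on both subgenomes with 0 protein-coding genes between them, *fgf2.S* is next to *spry1.S*, *fgf1.L* is next to *spry4.L*, and 9 genes part *fgfr3.S* from *fgfrl1.S*. *spry1.S* had 106 to 504 counts a library, and its neighbor *fgf2.S* at most 2. *fgfr3.S* and *fgfrl1.S* were both lowest in *kdm5c* MO 1 and *kdm3a* MO 3, as were 17.3% of the 52 copies and 15.9% of all models.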

How the data were processed

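Poly(A) RNA of whole embryos was sequenced in 6 libraries. Per the paper's methods, the authors aligned reads with BWA against *X. laevis* cDNAs from the genome consortium, and the deposited values are raw counts per gene model, with L and S copies apart and without normalization. The submitters' processing notes name BWA 0.7.10, which is not the version named in the paper's methods. How pairs and reads matching several cDNAs were counted is not given in the sources used here. Columns were matched to samples by the description, which numbers the second control differently from its title, and the title's number was used. Totals were 12838245 to 20217436 counts.

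Counts were filtered with filterByExpr, TMM-scaled and tested over all models with edgeR 4.0.16 in R 4.3.3 (exact test, p-values adjusted by Benjamini-Hochberg). A call needed more than 4-fold difference at an FDR under 0.01, as in the paper's methods. Standard errors come from the fitted negative binomial variance. Log2 values per library use CPM + 0.5. The exact test was run on simulated counts before use. Alternatives were other scalings and filters, edgeR's quasi-likelihood test, DESeq2 1.42.0, all 6 libraries in the fit, halved counts, summed copies and each library left out. Other settings for the copies above both *kdm5c* MO libraries, and the pair of control 2 and *kdm5c* MO 2 were tried after the data were seen. Named genes are the receptors, the described feedback genes, adaptors and ETS factors, secreted ligands with at least 20 counts in a library, in each comparison up to 5 members with the lowest and 5 with the highest log2 fold change among those with an unadjusted p below 0.05, and every member past both limits. The endocrine and intracellular members and genes outside the members were named after their values were seen, apart from those past both limits. Members and lists were chosen with earlier results of these data known. Replicates are described as biological in the series' design. Sequences were not used here, and 1 gene of the RAS-MAPK list is not reported here.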

Additional observations from a re-analysis of the deposited data

How the results depend on the processing

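No copy was called in any of the 3 comparisons under any alternative run. The median log2 fold change in *kdm5c* MO against control, -0.38, was -0.70 with library size only and 0.035 for control 2 against *kdm5c* MO 2 alone. With each replicate left out in turn it ran from -0.70 to -0.083. The medians of the other comparisons moved by less than the spread between replicates, and with a replicate left out ran from 0.0059 to 0.29 in *kdm3a* MO against control and from 0.52 to 0.61 in *kdm3a* MO against *kdm5c* MO. Over all models, calls numbered 33 in *kdm3a* MO against control (quasi-likelihood 0, DESeq2 81, all 6 libraries in the fit 10, at least 10 counts in every library 19), 14 in *kdm3a* MO against *kdm5c* MO (0, 22, 0 and 6) and 0 in *kdm5c* MO against control (0, 7, 2 and 2). With a replicate left out these calls ran from 4 (without *kdm3a* MO 3) to 358 (without control 2), from 9 (without *kdm3a* MO 4) to 38 (without *kdm5c* MO 2), and from 0 (without *kdm5c* MO 1) to 220 (without control 2) and 40 (without *kdm5c* MO 2). With the replicate number as a block (replicate block, quasi-likelihood test), the median was -0.33, 0 copies were called, and 1 copy had an unadjusted p below 0.05 in edgeR. That copy was *fgfr3.L* (-1.28 to -2.46), while *fgfr1.S*, the one copy without the block, no longer passed (-1.47 to -1.37). *fgf16.L* went from -1.62 to -0.34. The block reversed *fgf20.S*, from -1.04 to 0.079, and the cause was not tested. The labels do not say that a number marks a shared batch. The description numbers the second control differently from its title, so the block and this pairing rest on the title's number. The deviations of libraries paired in this way correlated at 0.242 over 26152 models, which are not independent.

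Among the log2 fold changes that were over 2-fold or had an unadjusted p below 0.05, the only ones followed copy by copy, leaving out 1 library reversed 7. Other copies can turn as well, since copies below 0 in *kdm5c* MO against control went from 36 of 51 to 30 of 52 without control 1. In *kdm5c* MO against control, *fgf16.L* ran from -2.59 to 2.41 and *etv1.S* from -1.87 to 0.19. In *kdm3a* MO against control, *fgf16.L* ran from -2.08 to 2.94, *fgf2.L* from -1.75 to 0.54 and *fgf8.L* from -1.91 to 0.031. In *kdm3a* MO against *kdm5c* MO, *fgf12.L* ran from -0.052 to 2.46 and *spry4.L* from -0.43 to 3.30. With 1 library left in a group, its spread is assumed to be that of the other group. The copies above both *kdm5c* MO libraries in *kdm3a* MO, 22 of 50, were 20 to 27 under other scalings and filters, and 14 of 29 genes with copies summed. With 2 libraries a group and biological coefficients of variation of 0.583 to 0.647, the precision of every fold change is low, and the 11 copies below 20 counts in every library could not be ordered.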

Other observations

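A further ligand model, *fgf23.1.L*, falls outside the symbol rule because of its extra digit. It had 0 and 8 counts in controls, 0 and 0 after *kdm5c* MO and 6 and 4 after *kdm3a* MO, too few to order the groups.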
